A study of Mus musculus with 8 samples.

Results

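The regions described here are stretches of late-replicating chromatin that replicated earlier after 2 days of auxin in mouse embryonic stem cells whose CTCF carries an auxin-inducible degron. They are 561 autosomal bins of 50 kb, out of 48080 bins in the whole table, 41018 autosomal bins with at least 3 measured windows, and 19759 of those that were late in control cells. A bin was late if its control mean was below -0.5. A late bin was included if its auxin mean exceeded its control mean by 0.8 or more and both auxin values lay above both control values. The members were therefore chosen on the comparison of auxin with control, and their scores and differences are a description, not a test. Advanced late bins made up 2.84% of all late bins and 28.05 Mb of sequence.

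Replication timing was measured by Repli-seq in E14Tg2a cells, a male embryonic stem cell line, and subclones of it. Degradation was induced in the auxin group with 500 µM indole-3-acetic acid, an auxin, over 2 days, and the control group received none. The labels give the control cells no genotype of their own, and the samples include no auxin-treated cells without a degron, so an effect of the compound itself cannot be told apart from loss of CTCF. After a BrdU pulse of 2 hours, flow cytometry parted the cells by DNA content into an early and a late fraction of S phase, and the BrdU-holding DNA of each was sequenced. The 8 libraries form 4 profiles, 2 with auxin and 2 controls, each joining an early and a late library. A timing score is given per window on a 6-kb grid of the mm10 build, and higher scores mean earlier replication. The sources used here do not give the scale of the score, whose genome-wide SD is 2.1 score units. Depth is unknown, because the files hold scores and no reads. Neither RNA nor CTCF protein was measured, so the cell type and the extent of depletion could not be checked. Whether the replicates are separate cultures is not stated, and a p-value here reflects no more than the spread of these profiles, which may be technical.

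Mammalian genomes replicate in large domains: gene-rich, open chromatin fires its origins early in S phase, and gene-poor chromatin at the nuclear lamina replicates late. Between them lie timing transition regions, which are copied by forks that move out of the early domain or by origins that fire progressively later. CTCF is a zinc finger protein that stops loop-extruding cohesin at its binding sites and so sets the borders of many topological domains. Many loci that are late in embryonic stem cells switch to early in a particular lineage, and genes for neuronal adhesion and synapse proteins are typical residents of late domains.

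Only 81 members (14.4%) held a protein-coding start site, so the promoters describe a small part of these bins. Of 103 RefSeq promoters (GRCm38.p6, 250 bases before to 50 after the start site; 100 protein-coding genes) whose start lay in an advanced late bin, 23 held 10 or more CpG dinucleotides (22.3%). The share was 33.2% of 3720 promoters in all late bins and 60.2% of 19079 promoters in all autosomal bins with at least 3 windows. The median promoter held 3 CpGs, with a GC content of 46.3%, against 4 CpGs and 47.3% in late bins and 15 CpGs and 57.3% overall. Shown next, 5′ to 3′ with each CpG in capitals, is 1 promoter from each of the 5 longest runs of advanced bins, taken from the bin with the largest difference among the run's bins that hold a start site in the RefSeq promoter table.
Ptn: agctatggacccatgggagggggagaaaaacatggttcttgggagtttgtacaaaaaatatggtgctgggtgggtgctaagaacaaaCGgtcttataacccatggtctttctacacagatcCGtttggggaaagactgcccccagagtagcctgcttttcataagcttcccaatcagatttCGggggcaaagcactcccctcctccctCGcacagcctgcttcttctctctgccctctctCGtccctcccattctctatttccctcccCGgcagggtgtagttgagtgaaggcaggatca
Dlgap1: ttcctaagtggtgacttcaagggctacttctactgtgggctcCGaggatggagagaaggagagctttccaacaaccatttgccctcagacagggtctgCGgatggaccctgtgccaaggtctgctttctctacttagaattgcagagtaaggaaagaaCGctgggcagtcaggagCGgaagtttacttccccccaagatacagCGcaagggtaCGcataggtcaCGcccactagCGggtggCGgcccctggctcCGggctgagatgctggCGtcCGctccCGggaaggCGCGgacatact
Fam160a1: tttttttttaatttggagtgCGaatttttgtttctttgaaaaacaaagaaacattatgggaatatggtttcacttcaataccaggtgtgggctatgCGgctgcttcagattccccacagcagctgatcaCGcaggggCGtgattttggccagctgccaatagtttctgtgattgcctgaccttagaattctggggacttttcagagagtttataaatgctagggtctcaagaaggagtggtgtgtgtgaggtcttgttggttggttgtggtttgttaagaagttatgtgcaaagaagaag
Olfr139: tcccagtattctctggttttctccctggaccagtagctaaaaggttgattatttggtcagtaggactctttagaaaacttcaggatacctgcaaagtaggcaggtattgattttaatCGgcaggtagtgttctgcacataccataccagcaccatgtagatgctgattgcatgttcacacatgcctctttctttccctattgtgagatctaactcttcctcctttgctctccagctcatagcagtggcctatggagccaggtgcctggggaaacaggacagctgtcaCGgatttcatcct
Ugt2b1: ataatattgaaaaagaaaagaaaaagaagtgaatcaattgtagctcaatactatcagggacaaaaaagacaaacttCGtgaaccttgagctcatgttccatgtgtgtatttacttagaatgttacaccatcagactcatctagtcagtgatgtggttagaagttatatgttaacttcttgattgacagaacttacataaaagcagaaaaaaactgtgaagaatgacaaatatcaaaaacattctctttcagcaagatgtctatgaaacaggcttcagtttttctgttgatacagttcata

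The Ptn promoter (chr6:36810130-36810429, minus strand) holds 6 CpGs and the Dlgap1 promoter (chr17:69968823-69969122, plus strand) 15. The Fam160a1 promoter (chr3:85746160-85746459, minus strand) holds 4, the Olfr139 promoter (chr11:74045223-74045522, minus strand) 2 and the Ugt2b1 promoter (chr5:86926454-86926753, minus strand) 1. The Dlgap1 promoter thus equals the median of all autosomal promoters, and the other 4 lie below it. The richest promoters in advanced bins were those of the transcription regulator gene Tox3 (52 CpGs), the growth factor gene Gdf10 (42) and Tent5c (42).

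In control cells the advanced bins ran from -4.19 to -0.29 in replicate 1, with a median of -1.73, and from -4.26 to -0.41 in replicate 2, with a median of -1.90. With auxin the median was -0.92 in replicate 1 (-3.10 to 0.83) and -0.88 in replicate 2 (-3.14 to 1.20). Control replicate 2 was thus the latest profile at the median, while both auxin profiles lay close together. The median difference between group means was 0.92, its quartiles over the members were 0.85 and 1.03, and the largest difference was 1.93. Replicates of a group differed by a median of 0.28 in control and 0.20 with auxin, against 0.25 and 0.23 in all late bins. Over all late bins the median difference between auxin and control was 0.02. Both auxin values above both control values, which the rule required, held in 26.3% of late bins and in 26.4% of all bins with at least 3 windows.

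**Figure D1:**
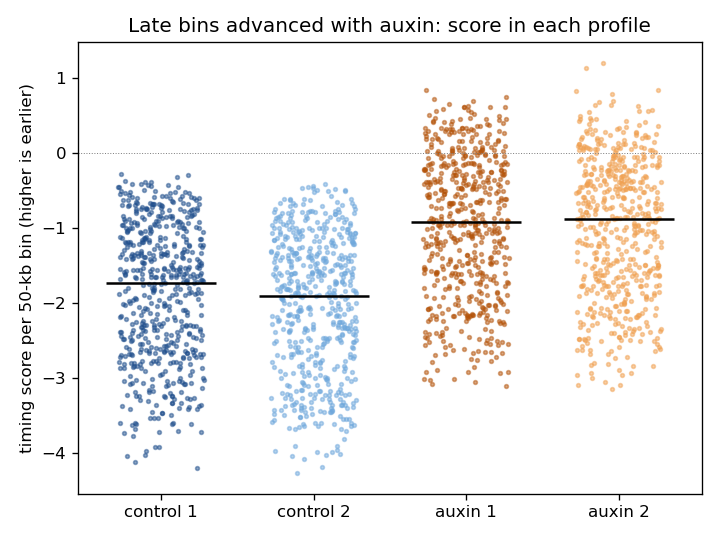
Timing score of each of the 561 advanced late bins (points) in the 2 control and 2 auxin profiles, with the median as a black line; higher is earlier. The control medians sit at -1.73 and -1.90 and the auxin medians at -0.92 and -0.88, and the ranges overlap because members start from very different scores.

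All 4196 windows inside the members had a higher auxin mean than control mean, and in 4178 of them both auxin values lay above both controls. Most members were well covered, with 386 holding 8 or 9 windows and 65 holding 3 to 5. These windows make up the bin means that the rule used, and neighbouring windows are not independent, so the counts are a description. The gap between the lower auxin and the higher control value had a median of 0.68 and reached 0.5 or more in 460 members. Just inside the threshold lay bins on chromosomes 16 (24650001 to 24700000), 9 (51400001 to 51450000) and 6 (147750001 to 147800000), each with a difference of 0.80. Just outside it lay bins on chromosomes 16 (8000001 to 8050000), 17 (65100001 to 65150000) and 10 (97050001 to 97100000), also at 0.80 when rounded.

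Most advanced bins stayed late. With auxin 360 of the 561 still had a mean below -0.5 (64.2%), 187 became middle (33.3%) and 14 became early, with a mean above 0.5. Of all late bins, 95.5% stayed late with auxin, and the 14 are the only late bins that became early. Such a bin must rise by more than the 0.8 of the rule, so their membership nearly follows from the choice. The size of the shift hardly varied with the starting score: the median difference was 0.92 for members between -1 and -0.5, 0.92 between -2 and -1, 0.93 between -3 and -2, and 0.89 below -3. The threshold of 0.8 narrows that range from below. All late bins below -3 had a median difference of 0.14, against 0.00020, 0.0025 and -0.02 in the classes above, from the earliest down. Members were 3.76% of late bins between -1 and -0.5 (93 bins), 3.66% between -2 and -1 (213), 1.91% between -3 and -2 (158) and 3.02% below -3 (97). Of the 87 members whose auxin mean passed 0, 78 started between -1 and -0.5 and 9 between -2 and -1. A member that starts less than 0.8 below 0 passes it by the rule.

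The 14 bins that became early include bins of Klf7, a Krüppel-like factor gene, and of Hivep3, Tmem108 and Fstl4. These genes were named after their values were seen. The Klf7 bin on chromosome 1 (64100001 to 64150000) stood at -0.78 and -0.47 in control and at 0.35 and 0.68 with auxin. At Fstl4, the gene of a follistatin-like secreted protein on chromosome 11, the bin from 52850001 to 52900000 went from -0.53 and -0.78 to 0.46 and 0.64. Neither bin overlapped between groups, as the rule required.

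Advanced bins lay on all 19 autosomes. Their share of a chromosome's late bins ran from 1.47% on chromosome 18 to 4.81% on chromosome 16, and chromosome 1 held the most members, 48. They formed 309 runs of adjoining bins, of which 197 were a single bin, 62 had 2 bins and 50 had 3 or more. Runs of 3 or more bins held 240 of the 561 members. The longest run spanned 500 kb. Single-bin runs had a median difference of 0.88, runs of 2 or more bins 0.94, and the 24 runs of 5 or more bins 1.02.

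The longest run lay on chromosome 6 (36450001 to 36950000) over Ptn, which encodes the heparin-binding growth factor pleiotrophin, part of the muscarinic receptor gene Chrm2 and the edge of the diacylglycerol kinase gene Dgki. Its mean score was -1.88 and -1.94 in the controls and -0.88 and -0.85 with auxin, a difference of 1.05. Each profile was higher at the Dgki end of the run than at the Chrm2 end, and both auxin profiles were above both controls in every bin, as the rule required. The first bin (36450001 to 36500000) went from -3.24 to -2.42 and the last (36900001 to 36950000) from -0.69 to 0.45. The bin with the largest difference (36500001 to 36550000) went from -3.33 and -3.43 to -2.20 and -1.56. The body of Ptn, wholly within the run, went from -1.40 ± 0.056 to -0.45 ± 0.11 (SD, n = 2 each).

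The second longest run covered the 5′ part of Dlgap1, the gene of a postsynaptic scaffold protein, on chromosome 17 (69950001 to 70400000). It was deeply late in control, at -2.53 and -3.10, and stood at -1.77 in both auxin profiles. The control replicates were far apart here, with an SD of 0.41, and leaving out control replicate 1 gave a difference of 1.33 and leaving out control replicate 2 gave 0.75. A run of 450 kb on chromosome 3 (85350001 to 85800000) covered Gatb, which encodes a subunit of the mitochondrial glutaminyl-tRNA amidotransferase, and Fam160a1. That run went from -0.97 and -1.20 to -0.02 and -0.15. On chromosome 11 (73900001 to 74300000) a run over 12 olfactory receptor genes and the zinc finger gene Zfp616 went from -2.20 and -2.27 to -1.02 and -1.21. Olfactory receptors are expressed one at a time in sensory neurons, and near-identical family members can share reads. Of these 12 genes only Olfr23 and Olfr59 held a window of their own.

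A run of 400 kb on chromosome 5 (86650001 to 87050000) had another form. It holds the serine protease genes Tmprss11b and Tmprss11e, the nuclear m6A reader gene Ythdc1 and the UDP-glucuronosyltransferase genes Ugt2b34, Ugt2b1 and Ugt2b35. The run was a local peak in all 4 profiles, with a control mean of -1.27 against -2.11 and -2.72 in the 150 kb to either side. It rose from -1.23 and -1.30 to -0.17 and -0.43, and its flanks with auxin stood at -1.63 and -2.14. Ythdc1 sat near the top of the peak, with -0.53 ± 0.074 in control and 0.35 ± 0.11 with auxin (SD, n = 2).

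The largest differences of all lay on chromosome 1 (77550001 to 77900000), in a run of 350 kb without a protein-coding gene between Epha4 and Pax3. It went from -1.56 and -1.64 to -0.16 and -0.09, a difference of 1.47. The bin with the largest difference of all members lay in it (77600001 to 77650000), at -1.12 and -1.14 in control and 0.46 and 1.13 with auxin. The ephrin receptor gene Epha4 ends 34.9 kb from the run and went from -0.40 ± 0.13 to 0.67 ± 0.14, while the neural crest transcription factor gene Pax3, 201.3 kb beyond its other end, went from -0.38 ± 0.048 to -0.69 ± 0.28 (SD, n = 2). Epha4 itself was not late enough in control to be a member. Another run without a gene, on chromosome 4 (142500001 to 142850000) between Kazn and Prdm2, went from -1.35 and -1.60 to -0.19 and -0.39. Its bin at 142700001 to 142750000 rose by 1.55, from -1.69 and -2.58 to -0.38 and -0.77. On chromosome 8 (86200001 to 86250000) a bin without a protein-coding gene rose by 1.61, from -1.63 and -1.81 to -0.04 and -0.18.

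Hhip encodes a membrane protein that binds hedgehog ligands and limits their signal. Its run on chromosome 8 (79950001 to 80250000) went from -1.52 and -1.51 to -0.39 and -0.30, and its controls differed by the least among the 12 longest runs. The Hhip body went from -1.03 ± 0.024 to 0.24 ± 0.13 (SD, n = 2). The run over Grin2a, an NMDA receptor subunit gene on chromosome 16 (9500001 to 9800000), went from -0.92 and -1.17 to 0.12 and -0.01. It was the only one of the 12 longest runs whose auxin mean was above 0, at 0.05. Both loci lay on a slope, with earlier chromatin on 1 side.

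Further runs of 350 kb lay on chromosomes 13 and 11. The first of them (chromosome 13, 93700001 to 94050000) holds Dmgdh, the dimethylglycine dehydrogenase gene, and Arsb, the gene of the lysosomal enzyme arylsulfatase B, and went from -1.27 and -1.36 to -0.28 and -0.10. The other on chromosome 13 (64650001 to 65000000), over the contactin-associated protein gene Cntnap3 and Spata31, went from -1.19 and -1.60 to -0.13 and -0.62. Its replicates were spread the most with auxin among the 12 longest runs, and its difference ran from 0.78 to 1.27 with a profile left out. Wdpcp, a gene needed for planar cell polarity and cilia, overlapped 6 of the 7 bins of the run on chromosome 11 (21600001 to 21950000). That run went from -0.92 and -1.14 to -0.03 and -0.18.

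The next 12 runs, of 5 or 6 bins, had differences from 0.93 to 1.09 and control means from -2.62 to -1.11. Most overlapped all or part of Phkb, Ptprt, Csmd2, Adam12, Kalrn, Pard3b, Galnt18, Zwint, Fhit or Atxn1. The rest lay over a cluster with Gdf10, Gdf2 and Rbp3, and over the serotonin receptor gene Htr4 with Fbxo38 and Spink genes. The share of a gene's body in advanced bins varied, from 6.95% for Fhit (body difference 0.19) to 100% for Zwint (0.82). These genes are given to complete the runs of 5 or more bins, and were picked with their values in view.

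**Figure D2:**
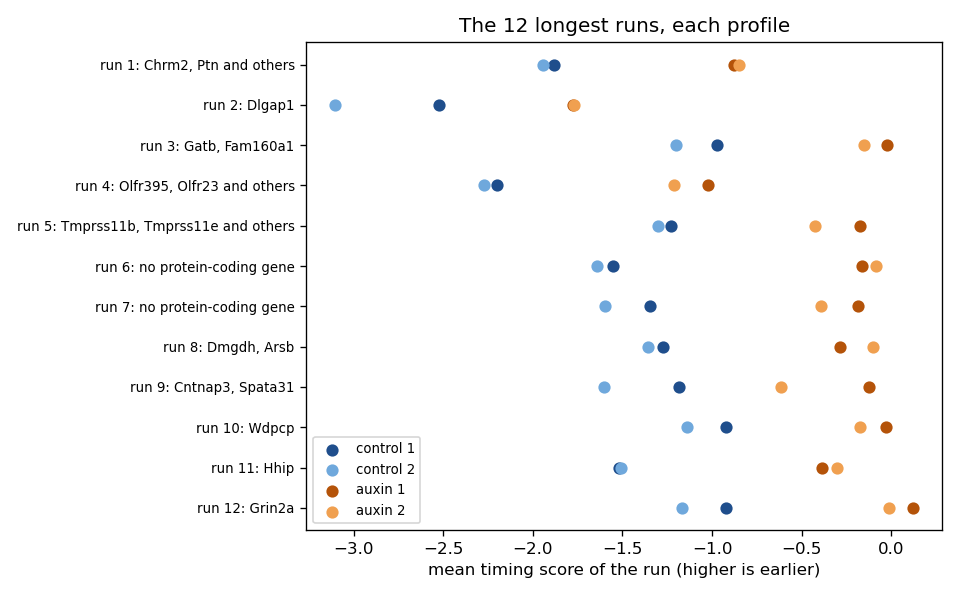
Mean timing score of each of the 12 longest runs in each profile (points); higher is earlier. The auxin points lie to the right of the control points in each run, as the rule required; the Dlgap1 run has the widest control pair (-2.53 and -3.10).

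**Figure D3:**
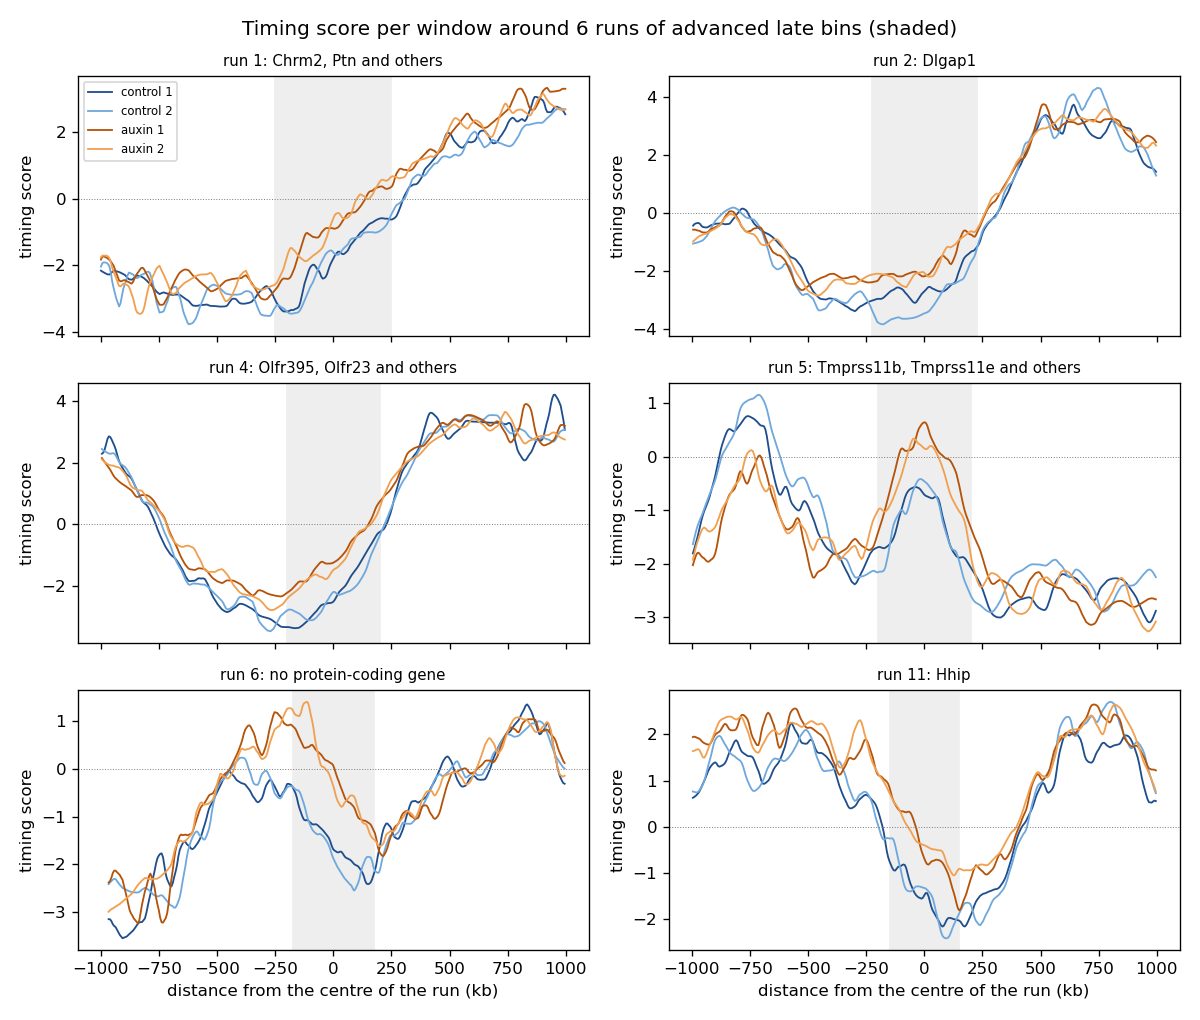
Timing score per window within 1000 kb of the centre of 6 runs (grey) in the 4 profiles; higher is earlier. The runs at Ptn, Dlgap1, the olfactory receptors and Hhip lie on or at the foot of a slope, while the Tmprss11 and Ugt2b run is a peak that stood higher with auxin.

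Advanced late bins lay close to early chromatin. The median distance to the nearest bin with a control mean above 0.5 was 350 kb, against 750 kb for all late bins, and 116 members (20.7%) lay within 200 kb of such a bin against 10.3% of late bins. This was so at matched control scores: between -1 and -0.5 the median distance was 200 kb for members and 300 kb for late bins, between -2 and -1 it was 300 and 550 kb, between -3 and -2 it was 400 and 900 kb, and below -3 it was 700 and 950 kb. The 452 late bins that moved the other way by the mirrored rule lay farther away, at a median of 1000 kb, although their median control score (-1.41) was higher than that of the members (-1.84). Distances rest on the control scores, which the rule used, and adjoining bins are not independent, so no test was made.

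Around the members the average control profile formed a trough that auxin made shallower. At the members the mean score went from -1.96 to -0.99. At 200 kb the auxin profiles were still higher by 0.53 on either side, and at 500 kb by 0.14 and 0.19. At 500 kb on either side all 4 mean profiles were above 0, and at 350 kb all 4 were below it. The trough is an average, and a single member need not share its shape. In control 17 of 561 members (3.03%, against 0.70% of late bins) had flanks of 150 kb earlier by 0.5 or more on both sides. On 1 side only 368 did, and 158 had neither. Of the 309 runs, 23 had both sides earlier with 3 flanking bins and 78 with 6, so the share depends on the span. Around the delayed late bins the average control profile was instead a small local peak in a late domain, -1.52 at the bin against -1.73 and -1.89 at 200 kb, which with auxin became a dip of -2.48. Choosing bins for a difference in these profiles favours low control values in one set and high control values in the other at the bin itself; how much of the sharp centre this makes was not tested.

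**Figure D4:**
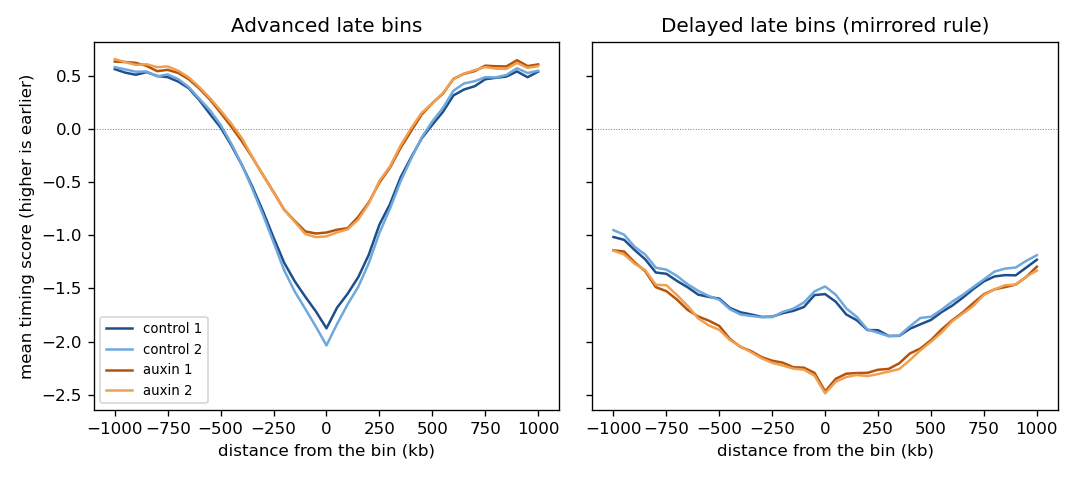
Mean timing score in each profile at distances up to 1000 kb from the advanced late bins (left) and from the late bins delayed by the mirrored rule (right); higher is earlier. Averaged over all members, the advanced bins form a trough that rises from -1.96 to -0.99. The delayed bins form a low peak within late chromatin.

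Seen run by run, 209 of the 309 runs had control flanks (the mean of 3 bins) earlier than the run by 0.5 or more on 1 side, 23 on both sides and 59 on neither, and 18 could not be classed for want of bins. These counts depend on the setting: with a step of 1 in place of 0.5, 92 runs had 1 earlier side, and with 6 flanking bins 78 runs had both. Counted per bin, 65.6% of members had 1 earlier side, against 41.6% of all late bins and 28.8% of delayed late bins. With auxin 115 runs had 1 earlier side, 2 had both and 174 had neither. Of the runs with 1 earlier side in control, 104 had none with auxin and 105 kept 1. The runs were chosen for their rise and end where the next bin does not meet the rule, so a smaller step with auxin, and a larger rise in the run than in its flanks, follow from the choice. In runs with 1 earlier side the run rose by a median of 0.91, its earlier flank by 0.52 and its later flank by 0.55. Of the 24 runs of 5 or more bins, all 24 had higher auxin means in both flanks.

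Delayed chromatin was seldom nearby. Within 500 kb of 32 members (5.70%) lay a bin that was delayed by 0.8 or more with both auxin values below both controls, against 24.1% of all late bins, a count that includes the delayed bins themselves. Bins near each other tend to move together, and no test was made of the lower share. Near the chromosome ends, 11 members lay in the first 5 Mb of measured sequence and 17 in the last 5 Mb (1.96% and 3.03%), against 4.58% and 3.16% of late bins.

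A protein-coding gene overlapped 295 members (52.6%), against 45.9% of late bins and 58.0% of delayed late bins. Members lay wholly inside a gene body more often by count, 177 bins or 31.6% against 24.2%, and 147 (26.2%) touched a gene of 300 kb or more, against 19.9%. Members held 3.57 gene starts per Mb, all late bins 3.41 and the delayed late bins 5.49. No test was made of these differences. The overlap involved 197 genes, 54 of them of 300 kb or more. Of the 166 genes with a window of their own, 162 had a higher body mean with auxin. The other 4 were Tshz2, Lsamp, Dnah7b and Arhgap26, each overlapped by 1 advanced bin. Genes were counted here for overlapping bins chosen for a rise, so a higher body mean largely follows from the choice.

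**Figure D5:**
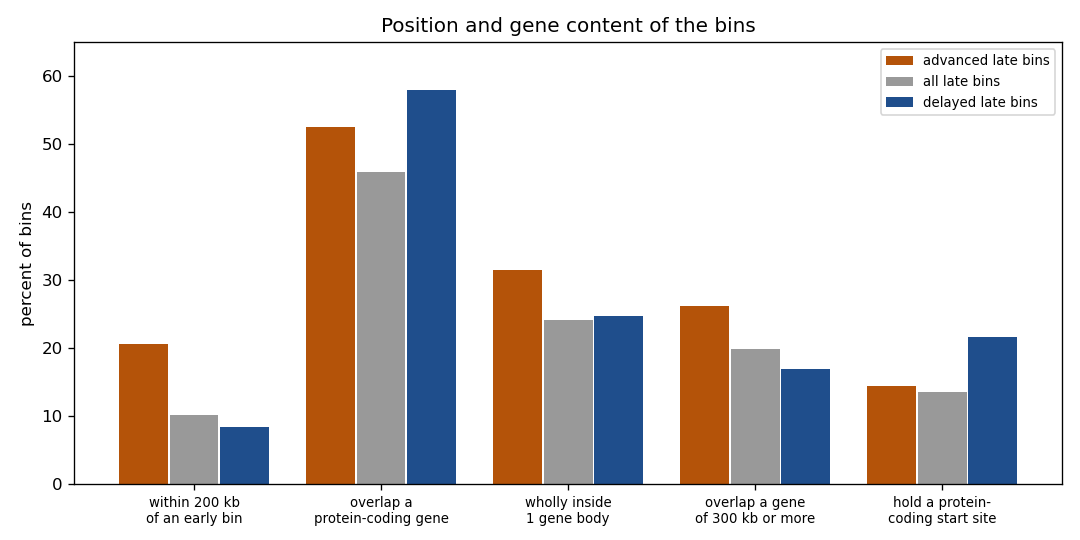
Percent of advanced late bins (561), all late bins (19759) and delayed late bins (452) that meet 5 descriptions of position and gene content. The share within 200 kb of an early bin was 20.7% for advanced and 10.3% for all late bins, and the share that overlaps a gene was 52.6% and 45.9%.

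The genes were read against 18 gene lists. Of all 16754 measured autosomal genes, 166 overlapped an advanced bin (0.991%), and of the 3107 whose body was late in control, 147 did (4.73%). Since members are late bins, the second share is the closer comparison. Ionotropic glutamate receptor genes (16 measured, 10 late) gave 3 that overlapped a member. Their median difference over the 10 late genes was 0.07, beside -0.03 over all late genes. Among the 3, Grin2a went from -0.90 ± 0.22 to -0.06 ± 0.042, and Grid1 from -1.39 ± 0.078 to -0.70 ± 0.072 (SD, n = 2). Both encode receptor subunits of synapses.

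Of 40 genes for neuronal adhesion and synapse proteins, 38 were late and 7 overlapped a member, 6 of them late. The phosphatase gene Ptprt went from -2.66 ± 0.16 to -1.88 ± 0.15 over a body of 1139 kb, Csmd2 from -1.34 ± 0.22 to -0.60 ± 0.020, and Dlgap1 from -0.41 ± 0.13 to 0.17 ± 0.0056 (SD, n = 2). The median difference over the 38 late genes was -0.02 beside -0.03 over all late genes. Of 14 measured hedgehog pathway genes, 2 were late and 1 of these, Hhip, overlapped a member. Of 16 neural lineage genes, 8 were late and 1 of these, Ptn, did. The median difference of the neural lineage list was negative, -0.28 over all 16 and -0.10 over the 8 late genes.

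Receptor and enzyme clusters contributed short genes. Of 352 vomeronasal receptor genes 9 overlapped a member, 7 of them with a window; the largest differences were at Vmn2r20 (1.13), Vmn2r88 (1.02) and Vmn2r113 (0.90), each resting on at most 2 windows. Of 1104 olfactory receptor genes 23 did, 17 of them without a window, and Olfr32 and Olfr1270, which overlap each other, both differed by 1.03 and 1.02. The median difference of late genes was 0.26 for the 90 vomeronasal and 0.18 for the 148 olfactory genes, against -0.03 for all late genes. On chromosome 15 the keratin genes Krt71, Krt5 and Krt6a, of hair sheaths and stratified epithelia, differed by 1.03, 0.84 and 0.79, and 3 of 10 late keratin genes overlapped a member. Cytochrome P450 genes (93 measured, 30 late) gave only Cyp2c67 (0.87) and Cyp2c39 (0.49). The list of clustered zinc finger genes named Zfp (326 measured, 24 late) gave only Zfp488 and Zfp616 (1.02 each). The list of voltage-gated sodium, potassium and calcium channel genes (110 measured, 38 late) gave only Cacna1e (0.40) and Kcnip4 (0.22). Cacna1e is a calcium channel gene, and Kcnip4 encodes a channel-interacting protein. Median differences over the late genes of these lists were 0.02, 0.0057 and 0.05, in that order.

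No member was touched by any of the 23 measured pluripotency genes, 16 CTCF and cohesin genes or 27 genes of origins and timing control. Few of these could have been, since 0, 0 and 1 of them had a late body. The same held for 17 mesoderm and endoderm genes (4 late), 21 Eph receptor and ephrin genes (7 late), 82 cadherin and protocadherin genes (44 late), 55 serpin genes (41 late) and 29 defensin genes (11 late).

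Members also held 6 microRNA hairpins, against 124 in all late bins. The hairpin in the bin with the largest difference (1.19) was Mir5624 in the Arsb run, whose mature forms are shown with the seed (bases 2 to 8) in capitals.
mmu-miR-5624-5p: uAUUGUAAacucugccuu
mmu-miR-5624-3p: uUAAGGCAgaguuuacaauagg

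The authors' deposited list of late-to-early regions, drawn from the same profiles, overlaps these bins only in part. Of its 22 regions, 20 are autosomal, and 12 overlap an advanced bin. In control 9 of the 20 had a mean below -0.5, and all 9 overlap an advanced bin. Each autosomal region without an overlap had a control mean above -0.5, outside the late class used here. In turn 26 members (4.63%) were covered by a region over at least 50% of their length. The smallest difference among the authors' late-to-early regions was 1.04, whereas the rule used here asked for 0.8. Of the members, 166 had a difference of 1 or more. How much of the low coverage comes from these unlike thresholds was not tested. In the authors' deposited table the region with the largest difference among those 12 lies in the gene-free run on chromosome 1 (77610000 to 77742000), with a difference of 1.67. None of the authors' early-to-late regions overlaps a member. That largely follows from the rule, since both sets were drawn from the same profiles for opposite shifts.

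Over all 42710 bins with at least 3 windows, limma (no block, Benjamini-Hochberg adjusted p under 0.05) called 120 of the 561 members earlier. The background is 0.637% of all bins called earlier (272) and 0.607% of late bins (120), so every late bin that was called is a member; since the rule used this contrast, nothing is read from that count. The members' adjusted p in limma ran from 0.0271 to 0.231. With 1 profile fewer, which leaves a group with a single profile, limma called far fewer members earlier or none. With any 1 profile left out, 521 members still differed by 0.5 or more and 215 by 0.8 or more, and the smallest difference of a member was 0.12.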

How the data were processed

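Repli-seq timing was analysed in 4 profiles from 8 libraries. The submitters' processing notes name mm10, bedtools, SAMtools and Bowtie2. The sources used here do not give versions, settings, filters, smoothing or the score's formula. The authors deposited a timing score per window, already quantile normalized: the 4 columns hold the same values once sorted, so a genome-wide shift cannot be seen. The authors' deposited region lists hold p-values and q-values from an unnamed test, which are not printed.

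Column names gave the groups. Scores were averaged in 50-kb bins (Python 3.11.15, pandas 2.3.3), and bins with at least 3 windows were fitted in limma 3.58.1 (R 4.3.3) on treatment alone. The fit was tested on simulated data. Late means a control mean below -0.5 and early above 0.5. Genes and promoters came from RefSeq tables of GRCm38.p6, which has mm10's coordinates; sequences were matched by gene ID. A gene's score is the mean of the windows in its body.

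The members, lists and tests were chosen with earlier results of these data known. Named genes are those in the 12 longest runs, in the 5 bins with the largest difference among those with at least 6 windows, and up to 3 per list; others are said to be named after their values were seen. Alternatives covered the windows per bin, bin position, centring, variance model, replicate block and profiles left out. Chromosome X was not part of the rule, and precision is limited by 2 profiles a group. Not every gene that the rule names is reported here.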

Additional observations from a re-analysis of the deposited data

How the results depend on the processing

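Quantile normalization, 2 profiles a group, the unknown depth and the unknown smoothing limit all values here. The count of bins called earlier in limma (272) depended on the fit: it was 1067 with a replicate block (517 members), 2209 with a trended and robust variance (497 members), 937 with at least 5 windows a bin, 69 with window medians and 1 with no minimum of windows. With a profile left out it ran from 0 to 48, with 48 without control replicate 1; the 3 zeros came with 8476, 6123 and 6396 bins at an unadjusted p under 0.05 in limma. The replicate block uses numbers that nothing says pair the profiles: the replicate difference with auxin and that in control had r = 0.038 across 42710 bins, which are not independent. The rule was met by 601 bins with window medians, 577 with profiles centred on late bins, 554 with shifted bins and 520 with at least 5 windows. With a profile left out it was met by 720 to 1034, the highest without control replicate 1, of which 338 to 477 were among the 561. The median difference over the 561 ran from 0.86 to 1.03 with a profile left out and stayed at 0.92 or 0.93 otherwise, and the count past 0 ran from 83 to 97. Counting start sites in place of gene bodies left 81 members with a gene (295 in the main count), since most overlaps are with gene interiors. With a flank step of 1 in place of 0.5, 92 runs had 1 earlier side (209 in the main count), and with 6 flanking bins 181 did, while 78 then had 2.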
